A study of Rattus norvegicus with 23 samples.

Results

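The genes described here act in glutathione metabolism, in the thioredoxin system and in the response driven by NRF2, the transcription factor encoded by Nfe2l2. They were given by name as a list of 44 genes, and a gene of the count table belonged to them where its symbol equalled a listed name. Of the 44, 43 were found among the 30452 genes of the table, and 42 of these were among the 14777 genes that passed the filter on low counts. Srxn1 was not found by symbol, so no counts of it are analysed here. Gpx3, which the table annotates as a long non-coding RNA, had at most 16 counts in any sample and did not pass the filter.

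As background, glutathione and thioredoxin are the main carriers of reducing power against peroxides in the cytosol and in mitochondria, and NADPH-dependent reductases keep both in their reduced form. NRF2 is held at a low level by KEAP1, which hands it to degradation, and oxidants or electrophiles that modify KEAP1 let NRF2 accumulate and bind antioxidant response elements together with a small MAF protein. BACH1 occupies the same elements as a repressor. The kidney tubule is known for high activity of γ-glutamyltransferase and of glutathione transferases.

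The study compared cultured cells in medium of normal and of acidic pH, and asked how non-damaging acidosis changes their transcriptome. Both lines come from normal rat kidney: NRK-52E, labelled NRKE and called epithelial, and NRK-49F, labelled NRKF and called fibroblasts. Cells were kept for 24 h without serum and then for 48 h at pH 7.4 or at pH 6.0, the latter set with hydrochloric acid, and poly(A) RNA was sequenced in bulk. There were 6 samples of NRK-52E at pH 7.4, 6 of NRK-52E at pH 6.0, 6 of NRK-49F at pH 7.4 and 5 of NRK-49F at pH 6.0. No genotype change or further treatment is labelled, each line is a single established line, and the labels place the NRK-52E samples in sample groups 1 and 3 and the NRK-49F samples in sample groups 4 and 6. The labels and the study's methods do not say whether replicates were separate cultures, so p-values measure only the spread between these samples, which may be technical.

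Total counts per sample ranged from 16412564 to 34250535. Levels are given as FPM, the CPM of edgeR, counts scaled to a common library size with TMM factors, and a count of 3 corresponded to 0.0839 to 0.203 FPM. FPM carry no gene length, so levels are compared between samples of a gene and not between genes, and a marker named as highest in its list is so in FPM alone. Of 10 epithelial markers, 8 were in the table, and 6 of these had a mean under 1 FPM in NRK-52E at pH 7.4. Cdh1 had a mean of 0.16 FPM there and Epcam of 0.0076 FPM, and Esrp1 had no count in any of the 23 samples. Krt8, the epithelial marker highest in FPM, had a mean of 499 FPM in NRK-52E and of 839 FPM in NRK-49F, and Krt7 of 21.8 and 1.42 FPM. The 6 markers under 1 FPM were thus at or near 0 in the line labelled epithelial, while Krt8 and Krt7 were not. Krt18, among the 6, had a mean of 0.0185 FPM in NRK-52E at pH 7.4. Ep300 and Rbx1, which are not on the marker lists, had means of 0.072 and 0.188 FPM in that group. A value near 0 in these counts therefore need not mean that a transcript was absent. The cells are called here by the name of their line. Of 11 fibroblast markers, 9 had a higher mean in NRK-49F at pH 7.4, among them Pdgfra (306 against 1.83 FPM, or 1.25 FPM without replicate A021) and Col1a2 (4476 against 13.5 FPM, or 5.59 FPM without A021). Col3a1 went the other way, with 1212 FPM in NRK-49F and 6149 FPM in NRK-52E, and Thy1 was at 0 in both lines at pH 7.4.

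Some libraries stood apart. Of the 9 fibroblast markers with a higher mean in NRK-49F, 6 were highest in replicate A021 among the NRK-52E samples at pH 7.4, such as Pdgfra with 4.73 FPM and Col1a2 with 52.9 FPM against at most 2.21 and 15.4 FPM in the other 5. Pdgfrb and Col5a1 were not (38.6 and 212 FPM against up to 45.9 and 263 FPM), Dcn was at 0 in the group, and Sod3 was lowest in A021 (16.5 FPM). Replicate A035 of the same group had the highest summed level of the redox genes in its group, 6389 FPM against at most 5293 FPM in the other 5. Replicate A042 of NRK-49F at pH 6.0 had the highest summed level of all samples, 35202 FPM. Counts of the 118 protein-coding genes with Rpl or Rps symbols made up 9.73% of the library in A035 and 11.4% in A042, against group medians of 7.29% and 8.86%. In these groups all samples stood in the same order for this share and for the summed redox level. In NRK-49F at pH 6.0 they ran from 7.01% with 18601 FPM in A056 to 11.4% with 35202 FPM in A042. In the other groups the order was not the same throughout. The part of this share in the results was not tested. Replicate A052 of NRK-49F at pH 7.4 had the highest summed level in its group, 10757 FPM against at most 9765 FPM in the other 5, and 9.84% of its counts in the Rpl and Rps genes against a group median of 7.72%. The part of these libraries in the results was not tested beyond leaving them out, A021, A035 and A042 singly and together and A052 singly.

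At pH 6.0 the redox genes were more often higher than lower in both lines. The genes were chosen with earlier results of these data known, so their counts beside the shares of all genes are a description. Of the 42 tested genes, 23 were higher at pH 6.0 in NRK-52E and 9 were lower, at a Benjamini-Hochberg adjusted p under 0.05 in edgeR's quasi-likelihood test. Over all 14777 genes tested in NRK-52E, 24.7% were higher and 36.6% lower. In NRK-49F, 21 of the 42 were higher and 1 was lower, beside 14.5% higher and 14.4% lower over all genes. With raw library sizes in place of TMM scaling the split in NRK-49F was 21 higher and 4 lower. The median log2 fold change of the 42 genes was 0.53 in NRK-52E and 0.35 in NRK-49F, and that of all tested genes was -0.12 and 0.00. The values at both pH did not overlap for 24 of the 42 genes in NRK-52E and for 18 in NRK-49F, beside 38.6% and 20.6% of all tested genes. A difference in bulk RNA does not tell apart a change in the number of cells that carry a transcript from a change in its amount per cell.

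Of the 42 genes, 17 were higher at pH 6.0 in both lines. The share of all tested genes with such joint calls is not given here, so these joint counts are not set against a background. A further 5 were higher in NRK-52E and not past the threshold in NRK-49F, 3 were higher in NRK-49F and not past it in NRK-52E, 8 were lower in NRK-52E and not past it in NRK-49F, and 7 passed it in neither line. Ephx1 was higher in NRK-52E and lower in NRK-49F, and Gpx1 lower in NRK-52E and higher in NRK-49F. The call of Gpx1 in NRK-52E was lost in 27 of 39 alternative analyses, and that of Ephx1 there in 0 of 39. In NRK-49F each was lost in 2 of 39. Among the 17 higher in both lines, the call was lost in 17 of 39 for Ggt1 in NRK-52E and in 13 of 39 for Prdx5 in NRK-49F. The summed level of the redox genes was 4863 to 6389 FPM in NRK-52E at pH 7.4 and 7754 to 9490.4 FPM at pH 6.0. In NRK-49F it was 7917 to 10757 FPM at pH 7.4 and 18601 to 35202 FPM at pH 6.0. Neither pair of groups overlapped in this sum. In NRK-49F, most of its rise was that of 1 gene: Gstp1 made up 73% of the rise of the mean sum and Nqo1 12.2%, and without these genes the sum was 5060.3 to 6668 FPM at pH 7.4 and 6773 to 10091 FPM at pH 6.0. In NRK-52E the same genes made up 23% and 10% of the rise, and without them the sum was 4285 to 5613 FPM at pH 7.4 and 6166 to 7630.3 FPM at pH 6.0.

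**Figure D1:**
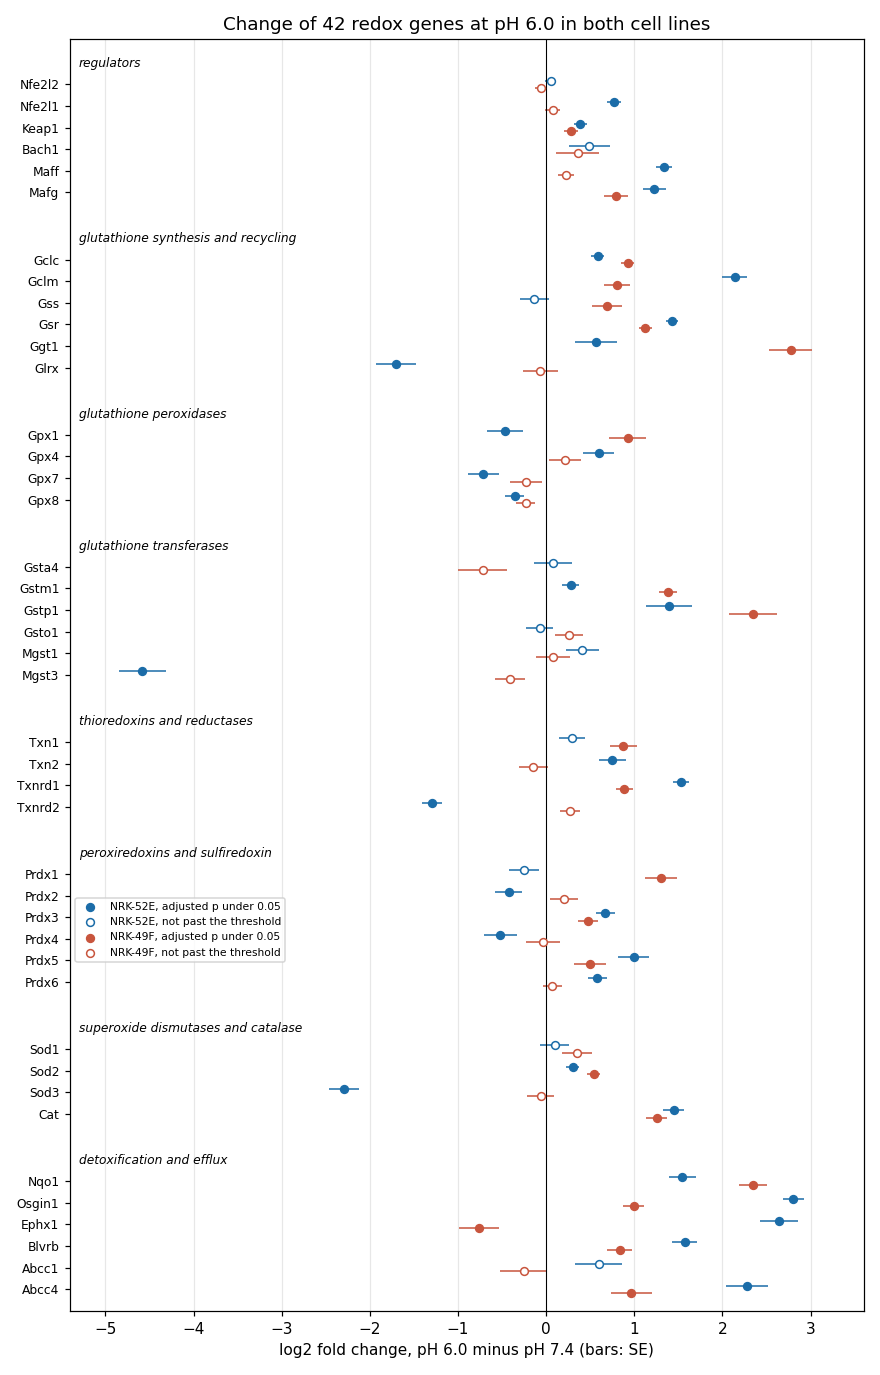
Log2 fold change from pH 7.4 to pH 6.0 (x axis; bars are SE) of the 42 tested redox genes (y axis, by role) in NRK-52E (blue) and NRK-49F (red), with filled points at an adjusted p under 0.05 in edgeR's quasi-likelihood test. The count of filled points is 32 in NRK-52E and 22 in NRK-49F.

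Among the 6 regulators, the transcript of NRF2 itself did not pass the threshold in either line, while Keap1 and Mafg rose in both lines. Nfe2l2 was at 157 to 174 FPM (median 168) in NRK-52E at pH 7.4 and at 160.4 to 186 FPM (median 175) at pH 6.0. In NRK-49F it was at 277 to 305 FPM (median 294) at pH 7.4, and the 5 samples at pH 6.0 had 270.0, 253, 312, 297 and 274 FPM. The groups overlapped in both lines, with log2 fold changes of 0.05 ± 0.0609 (SE) in NRK-52E and -0.06 ± 0.0638 in NRK-49F (adjusted p = 0.462 and 0.543). Keap1, which encodes the adaptor that targets NRF2 for degradation, was at 96.2 to 125 FPM (median 109) in NRK-52E at pH 7.4 and at 130.0 to 154 FPM (median 140.5) at pH 6.0. In NRK-49F, Keap1 was at 73.9 to 87.7 FPM (median 79.5) at pH 7.4, and at pH 6.0 the samples had 111, 91.3, 96.5, 104 and 88 FPM. Every sample at pH 6.0 was above every sample at pH 7.4 of its line. The rise of Keap1 was 0.39 ± 0.0738 (log2, SE) in NRK-52E and 0.28 ± 0.0773 in NRK-49F (adjusted p = 7.6e-05 and 0.00783). Mafg, a small MAF protein that pairs with NRF2, rose in both lines (log2 fold change 1.23 in NRK-52E and 0.79 in NRK-49F). Its relative Maff rose in NRK-52E (log2 fold change 1.34) and had 0.23 in NRK-49F (adjusted p = 0.063; past the threshold without A039 or without A056, at 0.0195 to 0.0337). For Maff the difference between the lines was itself past the threshold (adjusted p = 2.69e-07). Nfe2l1, the related factor NRF1, rose in NRK-52E by a log2 fold change of 0.77 and had 0.08 in NRK-49F, and this difference too passed (adjusted p = 4.67e-05). Bach1 did not pass in either line (log2 fold changes 0.49 and 0.36; adjusted p = 0.0724 and 0.291). Without replicate A021 or without replicate A026, the value of Bach1 in NRK-52E passed, with an adjusted p of 0.0293 and 0.0497, and without A035 it was 0.32 (adjusted p = 0.153). Without A021, A035 and A042 together, Bach1 passed in both lines (log2 fold changes 0.43 and 0.51; adjusted p = 0.0382 and 0.0285).

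The genes of glutathione synthesis and recycling mostly rose. Of these 6, 4 were higher and 1 lower in NRK-52E, beside 24.7% and 36.6% of all tested genes. In NRK-49F, 5 were higher and none lower, beside 14.5% and 14.4%. Gclm encodes the modifier subunit of glutamate-cysteine ligase, the enzyme of the rate-limiting step of glutathione synthesis. It was at 25.8 to 31.8 FPM (median 27.4) in NRK-52E at pH 7.4 and at 95.8 to 148 FPM (median 125) at pH 6.0. In NRK-49F, Gclm was at 11 to 17 FPM (median 13.9) at pH 7.4 and at 33, 22.1, 25.7, 22.6 and 17.3 FPM at pH 6.0. The groups did not overlap in either line, and the rise was 4.41-fold in NRK-52E and 1.75-fold in NRK-49F (log2 2.14 ± 0.141 and 0.80 ± 0.146, SE; adjusted p = 8.05e-12 and 0.000181). Gclc, the catalytic subunit of the same ligase, rose by log2 fold changes of 0.58 and 0.93, again without overlap. Gsr, glutathione reductase, rose by 1.43 and 1.13 (log2) without overlap. Gss, glutathione synthetase, had -0.14 in NRK-52E (adjusted p = 0.494) and rose by 0.69 (log2) in NRK-49F, where the groups overlapped.

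Ggt1 encodes γ-glutamyltransferase, which cleaves glutathione outside the cell. In NRK-49F it was at 43.5 to 60.5 FPM (median 51.2) at pH 7.4, and the samples at pH 6.0 had 350.4, 290.2, 389, 395 and 347 FPM. All 5 acidic samples lay above all 6 control samples, and the rise was 6.83-fold (log2 2.77 ± 0.242, SE; adjusted p = 6.9e-09). In NRK-52E, Ggt1 was at 5.15 to 12.8 FPM (median 9.04) at pH 7.4 and at 7.61 to 20.9 FPM (median 12.4) at pH 6.0. These groups overlapped and the log2 fold change of 0.56 was near the threshold (adjusted p = 0.0451). It missed the threshold without any of 10 libraries (A022, A024, A025, A026, A033, A034, A035, A041, A054 or A056), with an adjusted p of 0.0502 to 0.142. Glrx, the cytosolic glutaredoxin that reduces protein-glutathione mixed disulphides, went the other way in NRK-52E. It was at 4.32 to 7.75 FPM (median 6.29) at pH 7.4 and at 0.883 to 3.44 FPM (median 1.81) at pH 6.0. In NRK-49F, Glrx was at 34.9 to 44.7 FPM (median 38.2) at pH 7.4 and at 40.8, 34.1, 39.7, 39.9 and 31.6 FPM at pH 6.0. The NRK-52E groups did not overlap and the NRK-49F groups did. The log2 fold change was -1.71 ± 0.227 (SE) in NRK-52E and -0.06 ± 0.2 in NRK-49F (adjusted p = 6.9e-07 and 0.849).

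The glutathione peroxidase family, whose members reduce peroxides, some of them with glutathione, did not move together. Of the 4 tested, 1 was higher and 3 were lower in NRK-52E, beside 24.7% and 36.6% of all tested genes. In NRK-49F, 1 was higher, beside 14.5%. Counts of so few genes are a description. Gpx4, which reduces lipid hydroperoxides, rose in NRK-52E (log2 fold change 0.60, adjusted p = 0.00506) with overlapping groups and had 0.22 in NRK-49F (adjusted p = 0.412). Gpx7 and Gpx8, which reside in the endoplasmic reticulum, fell in NRK-52E (log2 fold changes -0.71 and -0.36) and had -0.23 and -0.23 in NRK-49F (adjusted p = 0.369 and 0.122). Over the alternative analyses the value of Gpx8 in NRK-52E ranged from -0.64 to -0.09. In sample group 1, Gpx8 was at 138 to 161 FPM at pH 7.4 and at 122 to 152 FPM at pH 6.0, with overlap. In sample group 3 it was at 155 to 186 FPM and at 102 to 115 FPM, without overlap. Gpx1, the abundant cytosolic form, was at 102 to 193 FPM (median 119) in NRK-52E at pH 7.4 and at 61.3 to 131 FPM (median 92.6) at pH 6.0. In NRK-49F it was at 210.2 to 377 FPM (median 226) at pH 7.4 and at 762, 392, 427, 508 and 336 FPM at pH 6.0. The groups overlapped in both lines. Its log2 fold change was -0.47 ± 0.203 (SE) in NRK-52E and 0.93 ± 0.211 in NRK-49F (adjusted p = 0.0494 and 0.00174). The call in NRK-52E was lost without any of 17 libraries (A021, A022, A024, A025, A026, A033, A035, A036, A037, A039, A040, A041, A043, A051, A053, A054 or A055), with an adjusted p of 0.0504 to 0.163, the highest without A035, which had the highest level at pH 7.4. The difference of Gpx1 between the lines was -1.39 (log2, adjusted p = 0.000505) and -1.02 without A021, A035 and A042 (adjusted p = 0.00332).

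The glutathione transferases couple glutathione to electrophiles. Of the 6, 2 were higher and 1 lower in NRK-52E, beside 24.7% and 36.6% of all tested genes. In NRK-49F, 2 were higher, beside 14.5%. These counts are not read as a result about the transferases as a group. Gstp1 was at 2371 to 3561 FPM (median 2663) in NRK-49F at pH 7.4, and the samples at pH 6.0 had 21649, 11381, 13455, 15606 and 10020.3 FPM. In NRK-52E it was at 328 to 557 FPM (median 474) at pH 7.4 and at 611 to 2006 FPM (median 1093) at pH 6.0. No groups overlapped within a line, and replicate A042 was the highest of all samples. The rise was 5.09-fold in NRK-49F and 2.63-fold in NRK-52E (log2 2.35 ± 0.276 and 1.40 ± 0.261, SE; adjusted p = 6.49e-07 and 6.41e-05), and without A042 the log2 fold change in NRK-49F was 2.16. Reads that map to several places were counted, so values of transferases with close paralogs, such as the Gstp and Gstm genes, are uncertain as to the copy. Gstm1 was at 39.8 to 48.3 FPM (median 42.9) in NRK-49F at pH 7.4 and at 123, 117, 106, 112 and 103 FPM at pH 6.0. In NRK-52E, Gstm1 was at 50.3 to 69 FPM (median 61.9) at pH 7.4 and at 61.9 to 87.1 FPM (median 72.2) at pH 6.0. The NRK-49F groups did not overlap and the NRK-52E groups did. The log2 fold change of Gstm1 was 1.38 ± 0.103 (SE) in NRK-49F and 0.28 ± 0.0977 in NRK-52E (adjusted p = 5.1e-10 and 0.0167), and in NRK-52E it was 0.0502 in adjusted p without A025.

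Mgst3, a microsomal transferase, had the largest fall of the 42 genes in either line. It was at 3.36 to 7.3 FPM (median 3.9) in NRK-52E at pH 7.4 and at 0.0552 to 0.233 FPM (median 0.185) at pH 6.0, which were 66 to 144 and 1 to 8 counts per sample. In NRK-49F, Mgst3 was at 22.5 to 36.6 FPM (median 28) at pH 7.4 and at 23.2, 19, 20.4, 25.5 and 16.6 FPM at pH 6.0. The NRK-52E groups did not overlap and the NRK-49F groups did. The log2 fold change was -4.58 ± 0.266 (SE) in NRK-52E and -0.41 ± 0.169 in NRK-49F (adjusted p = 1.13e-12 and 0.0717), and in NRK-49F it passed without A035 or without A055 (adjusted p = 0.0226 to 0.0494). Gsta4 and Gsto1 passed in neither line, with log2 fold changes of 0.08 and -0.07 in NRK-52E and of -0.72 and 0.26 in NRK-49F. The value of Gsta4 in NRK-49F rests largely on A051, which had 9.74 FPM at pH 7.4 against at most 3.83 FPM in the other 5, and without A051 it was -0.27 (adjusted p = 0.309). It passed without any of 4 other libraries (A040, A041, A053 or A054; adjusted p = 0.0296 to 0.0439). Mgst1 passed in neither line over all samples (0.41 in NRK-52E, adjusted p = 0.0626, and 0.08 in NRK-49F), and it passed in NRK-52E without any of 4 libraries (A035, A036, A037 or A038; adjusted p = 0.0124 to 0.0401).

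In the thioredoxin system, the cytosolic reductase rose in both lines and the mitochondrial reductase fell in NRK-52E. Txnrd1 encodes the cytosolic thioredoxin reductase, a selenoprotein. It was at 111 to 132 FPM (median 123) in NRK-52E at pH 7.4 and at 295 to 414 FPM (median 351) at pH 6.0. In NRK-49F it was at 95 to 102 FPM (median 96.7) at pH 7.4 and at 216, 175, 169, 171 and 171 FPM at pH 6.0. The groups did not overlap in either line, and the log2 fold changes were 1.53 ± 0.0911 and 0.89 ± 0.0935 (SE; adjusted p = 1.52e-12 and 1.38e-07). Txnrd2, the mitochondrial reductase, fell in NRK-52E (log2 fold change -1.29) without overlap and had 0.27 in NRK-49F (adjusted p = 0.0831, and 0.0313 without A043). Txn2, the mitochondrial thioredoxin, rose in NRK-52E (log2 fold change 0.75) and had -0.14 in NRK-49F (adjusted p = 0.545). Txn1, the cytosolic thioredoxin, rose in NRK-49F (log2 fold change 0.88) without overlap and had 0.29 in NRK-52E (adjusted p = 0.0894). Txn1 in NRK-52E passed without A035 (adjusted p = 0.0201) and without A042 (adjusted p = 0.0481).

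Of the 6 peroxiredoxins, most of which use thioredoxin to reduce peroxides, 3 were higher and 2 lower in NRK-52E. Over all tested genes these shares were 24.7% and 36.6%. In NRK-49F, 3 were higher, beside 14.5% of all tested genes. The 2 lower in NRK-52E lie near that line's share and are not read as a result about the group. Prdx1, a cytosolic form, was at 271 to 417 FPM (median 299) in NRK-49F at pH 7.4 and at 1343, 624, 687, 724 and 534 FPM at pH 6.0. In NRK-52E, Prdx1 was at 297 to 508 FPM (median 352) at pH 7.4 and at 283 to 359 FPM (median 306) at pH 6.0. The NRK-49F groups did not overlap, with A042 above the other 4 acidic samples, and the NRK-52E groups overlapped. The log2 fold change was 1.30 ± 0.178 (SE) in NRK-49F and -0.25 ± 0.17 in NRK-52E (adjusted p = 5.22e-06 and 0.213), and without A042 it was 1.02 in NRK-49F. Prdx3, the mitochondrial form, rose in both lines by log2 fold changes of 0.67 and 0.48 without overlap. Prdx5 rose by 0.99 in NRK-52E and 0.50 in NRK-49F (adjusted p = 2.86e-05 and 0.0387). The call in NRK-49F was lost without any of 7 libraries (A039, A040, A042, A051, A053, A054 or A055), with an adjusted p of 0.0527 to 0.169. Prdx6 rose in NRK-52E (0.58) and had 0.07 in NRK-49F. Prdx2 fell in NRK-52E (-0.43, adjusted p = 0.0204), a call lost without A035 (adjusted p = 0.0817) and without A037 (adjusted p = 0.0524). Its log2 fold change there ranged from -0.74 to -0.10 over the alternative analyses. In sample group 1, Prdx2 was at 254 to 290 FPM at pH 7.4 and at 216 to 274 FPM at pH 6.0, with overlap. In sample group 3 it was at 294 to 456 FPM and at 192 to 242 FPM, without overlap. Prdx4, the form of the endoplasmic reticulum, fell in NRK-52E (-0.52, adjusted p = 0.0185), a call lost without A035 (adjusted p = 0.0812). Over the alternative analyses its log2 fold change there ranged from -0.82 to -0.12. In sample group 1, Prdx4 was at 89.3 to 91.8 FPM at pH 7.4 and at 71.2 to 92.5 FPM at pH 6.0, with overlap. In sample group 3 it was at 129 to 192 FPM and at 76.5 to 103 FPM, without overlap.

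Catalase and mitochondrial superoxide dismutase rose in both lines, and the secreted superoxide dismutase fell in NRK-52E. Cat was at 48.9 to 72.9 FPM (median 67.1) in NRK-52E at pH 7.4 and at 148 to 202 FPM (median 178) at pH 6.0. In NRK-49F, Cat was at 90.8 to 127 FPM (median 113) at pH 7.4 and at 215, 313, 257, 233 and 295 FPM at pH 6.0. The groups did not overlap in either line, with log2 fold changes of 1.45 ± 0.115 and 1.26 ± 0.118 (SE; adjusted p = 1.88e-10 and 2.17e-08). Sod2, the mitochondrial enzyme, rose by 0.30 and 0.54 (log2), also without overlap. Sod1, the cytosolic enzyme, did not pass in either line (0.10 and 0.35). Sod3, the extracellular enzyme, was at 16.5 to 24.3 FPM (median 20.3) in NRK-52E at pH 7.4 and at 2.3 to 6.03 FPM (median 3.98) at pH 6.0. In NRK-49F it was at 155 to 199 FPM (median 175) at pH 7.4 and at 169.6, 203, 155, 155 and 163 FPM at pH 6.0. Every acidic NRK-52E sample was below every control sample, while the NRK-49F groups overlapped. The log2 fold change of Sod3 was -2.29 ± 0.172 (SE) in NRK-52E and -0.06 ± 0.157 in NRK-49F (adjusted p = 6.92e-11 and 0.81).

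Marker levels also differed between the pH values. Of the 11 fibroblast markers, 9 had a lower mean at pH 6.0 in NRK-52E, where the other 2, Dcn and Thy1, were at 0. In NRK-49F, 9 had a lower mean at pH 6.0, among them Pdgfra with 304 against 306 FPM. The other 2 there were higher at pH 6.0, Vcam1 with 402 against 272 FPM and Thy1 with 0.0482 against 0 FPM. The summed fibroblast markers, of which Col3a1 was the highest in FPM in NRK-52E, were 5193 to 8424 FPM at pH 7.4 and 1989 to 3284 FPM at pH 6.0. The summed epithelial markers, of which Krt8 was the highest in FPM, were 463 to 683 FPM in NRK-52E at pH 7.4 and 199 to 265 FPM at pH 6.0. The part of either marker list in the changes of the redox genes was not tested. Without A021 the log2 fold changes of the 3 redox genes with the largest falls in NRK-52E were -2.34 for Sod3, -4.60 for Mgst3 and -1.64 for Glrx.

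The genes of detoxification and efflux held the 3 largest rises of the 42 genes in NRK-52E. Of the 6, 5 were higher in NRK-52E, beside 24.7% of all tested genes. In NRK-49F, 4 were higher and 1 lower, beside 14.5% and 14.4%. Osgin1, known as an NRF2 target, was at 7 to 10.6 FPM (median 8.84) in NRK-52E at pH 7.4 and at 48.7 to 73.2 FPM (median 63.1) at pH 6.0. In NRK-49F, Osgin1 was at 25.5 to 37.5 FPM (median 27.3) at pH 7.4 and at 65, 53.2, 53.9, 61.2 and 53.6 FPM at pH 6.0. The groups did not overlap in either line, and the rise was 6.99-fold in NRK-52E and 1.99-fold in NRK-49F (log2 2.81 ± 0.122 and 1.00 ± 0.118, SE; adjusted p = 1.1e-14 and 7.28e-07). Nqo1, the quinone reductase, was at 419 to 528 FPM (median 476) in NRK-49F at pH 7.4 and at 3462, 2300.0, 2248, 2284 and 1807 FPM at pH 6.0. In NRK-52E it was at 139 to 218 FPM (median 162) at pH 7.4 and at 359 to 638 FPM (median 494) at pH 6.0. No groups overlapped within a line, and the log2 fold changes were 2.35 ± 0.158 in NRK-49F and 1.55 ± 0.15 in NRK-52E (SE; adjusted p = 1.06e-10 and 5.12e-09).

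Ephx1, the microsomal epoxide hydrolase, moved in opposite directions. It was at 30.7 to 44.2 FPM (median 34.6) in NRK-52E at pH 7.4 and at 129 to 323 FPM (median 223) at pH 6.0. In NRK-49F, Ephx1 was at 20.6 to 29.1 FPM (median 25) at pH 7.4 and at 17.6, 13, 15.1, 14.8 and 12.9 FPM at pH 6.0. All acidic samples were above the controls in NRK-52E and below them in NRK-49F. The log2 fold changes were 2.65 ± 0.217 and -0.76 ± 0.225 (SE; adjusted p = 3.19e-10 and 0.013). Abcc4, an efflux pump for organic anions, was at 3.68 to 10.9 FPM (median 8.16) in NRK-52E at pH 7.4 and at 29.5 to 44.5 FPM (median 39.2) at pH 6.0. In NRK-49F, Abcc4 was at 27.5 to 61.5 FPM (median 44.6) at pH 7.4 and at 54.4, 122, 87.8, 58.1 and 110.4 FPM at pH 6.0. The NRK-52E groups did not overlap and the NRK-49F groups did, with log2 fold changes of 2.28 ± 0.239 and 0.97 ± 0.231 (SE; adjusted p = 1.68e-08 and 0.0026). Blvrb, biliverdin reductase B, rose in both lines without overlap (1.57 and 0.83, log2). Abcc1, a pump for glutathione conjugates, did not pass in either line (0.59 and -0.26; adjusted p = 0.0543 and 0.521), and in NRK-52E it passed without any of 6 libraries (A021, A023, A026, A038, A043 or A052), with an adjusted p of 0.026 to 0.0483.

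**Figure D2:**
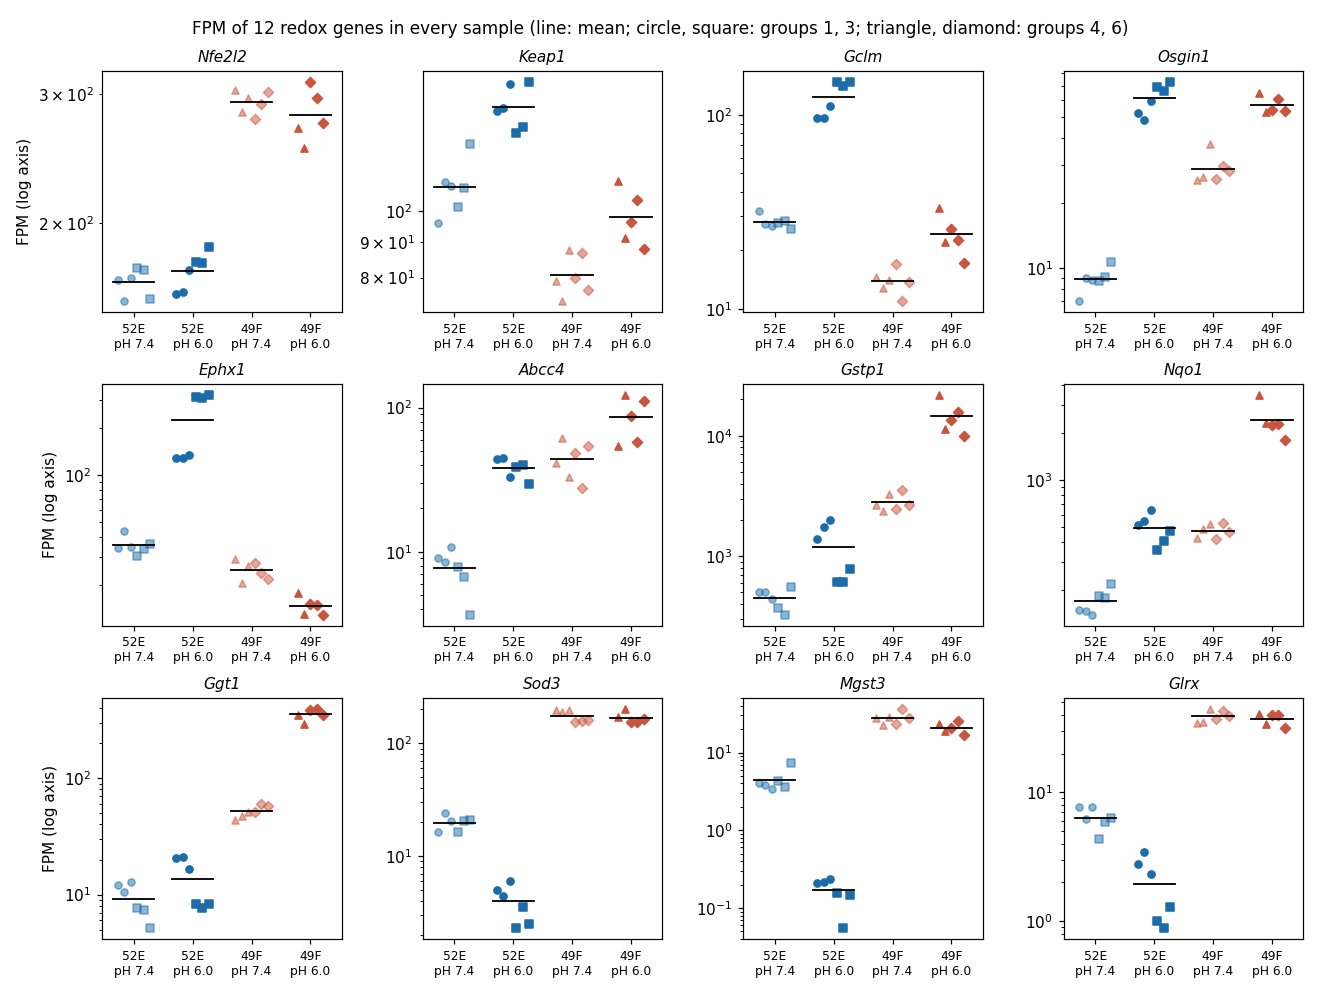
FPM of 12 redox genes in every sample (y axis, logarithmic; points are samples, shaped by sample group, and lines are group means) in NRK-52E (blue) and NRK-49F (red) at pH 7.4 and pH 6.0 (x axis). Nfe2l2 overlaps between both pH in each line, Gstp1 in NRK-49F lies at 2371 to 3561 FPM at pH 7.4 and at 10020.3 to 21649 FPM at pH 6.0, and Mgst3 in NRK-52E is at most 0.233 FPM at pH 6.0.

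Of the 8 genes that were lower at pH 6.0 in NRK-52E and not past the threshold in NRK-49F, the difference between the lines passed for 5 (Glrx, Mgst3, Txnrd2, Prdx2 and Sod3), for Prdx2 not without A035 or A042 (adjusted p = 0.053 and 0.0718). It did not pass for Prdx4, Gpx7 and Gpx8 (adjusted p = 0.152, 0.133 and 0.555), with Gpx7 at 0.0456 without A052. Of the 4 tested selenoproteins, 2 were higher and 2 lower in NRK-52E, beside 24.7% and 36.6% of all tested genes. In NRK-49F, 2 were higher, beside 14.5%. Counts of so few genes are not read as a result about selenoproteins.

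The change at pH 6.0 differed between the lines for 25 of the 42 genes, beside 41.4% of all tested genes. The change was more positive in NRK-52E for 11 and in NRK-49F for 14, beside 16.8% and 24.7% of all tested genes. The largest differences were those of Mgst3 (-4.17 ± 0.325, SE; log2, NRK-52E minus NRK-49F; adjusted p = 9.01e-10), Ephx1 (3.41 ± 0.312; adjusted p = 1.13e-08), Sod3 (-2.23 ± 0.23; adjusted p = 6.23e-08) and Ggt1 (-2.21 ± 0.334; adjusted p = 1.2e-05). Of these 4, the change was more positive in NRK-52E for Ephx1 and in NRK-49F for the other 3. Among genes past the threshold in 1 line and not in the other, the difference also passed for Gss (-0.83, log2), Txn2 (0.90) and Prdx6 (0.51), and it did not for Gpx4 (0.38, adjusted p = 0.244). Without A021, A035 and A042 the difference of Gpx4 was 0.71 (adjusted p = 0.0152). The differences of Osgin1, Gclm and Abcc4 were positive (1.81, 1.34 and 1.31), and those of Glrx, Txnrd2 and Prdx1 negative (-1.64, -1.56 and -1.55). For Gstp1 the difference of -0.95 was near the threshold (adjusted p = 0.0429) and was lost without any of 14 of the 23 libraries (A021, A022, A023, A035, A036, A037, A038, A039, A040, A042, A051, A053, A054 or A055), with an adjusted p of 0.0521 to 0.102, the highest without A042. The difference of Txn1 (-0.58, adjusted p = 0.0312) was lost without A024, A035, A040, A042 or A055 (adjusted p = 0.0527 to 0.0863), and that of Prdx2 (-0.63) without A035 or A042 (adjusted p = 0.053 and 0.0718). The difference of Prdx5 (0.49, adjusted p = 0.119) passed without A035 (adjusted p = 0.0461), without A042 (adjusted p = 0.0306) and without A021, A035 and A042 together (0.79, adjusted p = 0.0104). That of Abcc1 (0.85, adjusted p = 0.0752) passed without A021, A043 or A052 (adjusted p = 0.0281 to 0.0455). The differences of Mafg, Gsta4 and Sod2 did not pass over all samples, and passed for Mafg without A023 or A043, for Gsta4 without A040 or A054 and for Sod2 without A038 or A043 (adjusted p = 0.0319 to 0.0335, 0.0409 to 0.0434 and 0.0274 to 0.0329). The difference of Gsta4 was 0.80 over all samples and 0.35 without A051 (adjusted p = 0.239).

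At pH 7.4 the lines differed in most of these genes, as they did in most of all tested genes. Of the 42, 11 were higher and 22 lower in NRK-52E than in NRK-49F, beside 35% higher and 33.9% lower over all tested genes, and 26 did not overlap, beside 50.7% of all tested genes. The samples at pH 7.4 also enter the pH changes, so these levels and those changes are not independent. Gsta4 had the largest difference, at 84.6 to 116 FPM (median 90.4) in NRK-52E and 2.49 to 9.74 FPM (median 3.17) in NRK-49F, a log2 difference of 4.46 ± 0.259 (SE; adjusted p = 1.57e-13). Txnrd2, Gsr, Maff and Gclm were higher in NRK-52E (log2 1.19, 1.06, 1.05 and 1.01). Sod3, Mgst3, Gstp1, Glrx, Abcc4, Ggt1 and Gsto1 were lower in NRK-52E (log2 -3.16, -2.67, -2.65, -2.60, -2.49, -2.48 and -2.38). Nfe2l2 was lower in NRK-52E (-0.82 ± 0.0612, SE) and Keap1 higher (0.42 ± 0.074), each without overlap. Scaling by raw library size moved the median of all genes from 0.02 to 0.21 in this comparison, and with it the calls of Txn2 and Prdx3 were lost. The call of Txn2 was also lost without any of 7 libraries (A021, A022, A023, A033, A034, A041 or A052; adjusted p = 0.0526 to 0.116). That of Prdx3 was lost without any of 4 (A021, A023, A039 or A052; adjusted p = 0.0564 to 0.079), and that of Ephx1 without any of 4 (A022, A040, A052 or A053; adjusted p = 0.0519 to 0.0733) and without A021, A035 and A042 together (adjusted p = 0.0589). Nfe2l1, Gpx8 and Txn1 did not pass over all samples (log2 0.18, -0.22 and -0.27). Nfe2l1 passed without any of 5 libraries (A033, A035, A042, A051 or A053; adjusted p = 0.0195 to 0.0485), and Gpx8 and Txn1 without A035 or A056 (adjusted p = 0.0268 to 0.0289 and 0.0233 to 0.039).

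**Figure D3:**
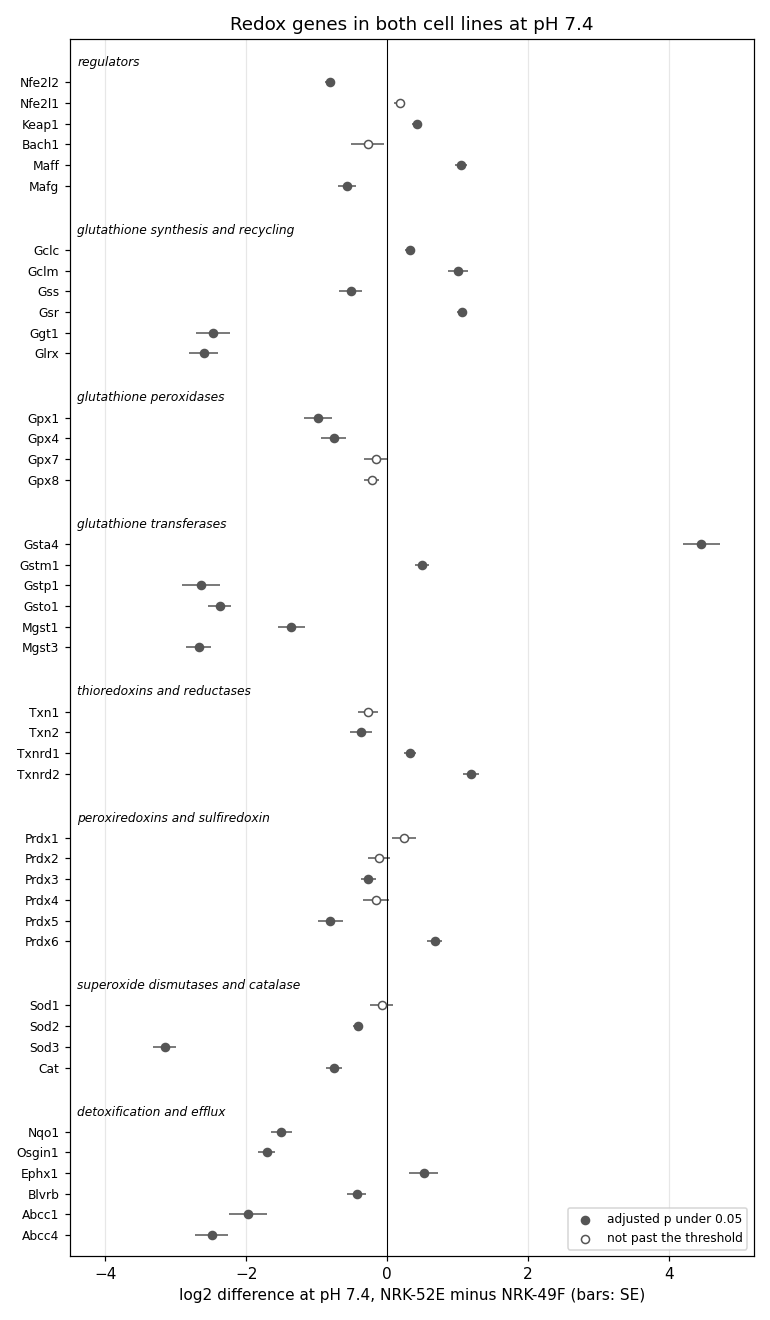
Log2 difference at pH 7.4 between NRK-52E and NRK-49F (x axis; bars are SE, positive values higher in NRK-52E) of the 42 tested redox genes (y axis, by role), with filled points at an adjusted p under 0.05 in edgeR's quasi-likelihood test. Gsta4 lies farthest to the right at 4.46 and Sod3 farthest to the left at -3.16.

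The labels do not say what the sample groups are, so the pH change was also taken within each. In NRK-52E, 23 of the 42 genes were higher and 5 lower in sample group 1, and 22 were higher and 9 lower in sample group 3, beside 18.8% and 30.1% of all tested genes in group 1 and 23.8% and 33.6% in group 3. In NRK-49F, 21 were higher and 1 lower in sample group 4, and 17 were higher and 2 lower in sample group 6, beside 12% and 11% of all tested genes in group 4 and 10.3% and 10.9% in group 6. The change differed between groups 1 and 3 for 6 of the 42 genes, beside 10.6% of all tested genes, and for 3 without A036. Ephx1 rose more in group 3 (log2 3.23 against 1.79), Gstp1 and Nqo1 more in group 1 (Gstp1 1.82 against 0.67, Nqo1 1.98 against 1.11), and Glrx and Sod3 fell more in group 3 (Glrx -2.37 against -1.38, Sod3 -2.79 against -1.96). Mgst1 rose in group 1 (1.04) and fell in group 3 (-0.39), each past the threshold. For Ephx1 at pH 6.0 the 3 samples of group 1 had 129, 129 and 135 FPM and those of group 3 had 313, 310.4 and 323 FPM, so the 3 samples of a group lay close together and the groups did not overlap. Between groups 4 and 6, 0 of the 42 genes differed by edgeR at an adjusted p under 0.05, beside 0% of all tested genes. At an unadjusted p under 0.05, 1 of the 42 differed by edgeR and 2 by DESeq2, beside 4.03% and 5.06% of all tested genes, and DESeq2 called 0 of the 42 and 10 of all tested genes at an adjusted p under 0.05. Sample group 4 has only A042 and A043 at pH 6.0, so leaving out either leaves 1 library there, which is assumed to vary like the other groups. By edgeR at an unadjusted p under 0.05, 0 of the 42 and 2.57% of all tested genes differed without A042, and 10 of the 42 and 18.6% of all tested genes without A043. At an adjusted p under 0.05, 0 of the 42 differed in either case, and 0 and 11 of all tested genes.

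Other genes of these pathways were described by 5 lists, which together held 92 tested genes that are not among the 44. Of the 92, 42 were higher and 24 lower at pH 6.0 in NRK-52E, beside 24.7% and 36.6% of all tested genes. In NRK-49F, 30 were higher and 11 lower, beside 14.5% and 14.4%. The 11 lower in NRK-49F lie near that share and are not read as a result about these genes. These lists were chosen with earlier results of these data known. The median log2 fold change of the 92 was 0.24 in NRK-52E and 0.15 in NRK-49F, beside -0.12 and 0.00 over all tested genes. Among the 23 tested NRF2 targets, NRK-52E had 14 higher and 4 lower at pH 6.0, and NRK-49F had 15 higher and 1 lower. These counts stand beside the same shares of all tested genes. The genes named from each list are those with the largest changes past the threshold where the mean reached 5 FPM at either pH, and genes below that level with larger changes are not named. They are named for each line in turn, and a gene named for 1 line may have passed in the other as well. In NRK-52E such rises were those of Ftl1, the ferritin light chain (2.46, log2), Idh1, a source of cytosolic NADPH (1.62), and Gsta1 (1.30). Such falls there were those of Aldh3a1, an aldehyde dehydrogenase, with means of 82.6 and 3.48 FPM (-4.53), Ugdh (-0.82) and Slc48a1 (-0.28). In NRK-49F such rises were those of Akr1b8, an aldo-keto reductase, with means of 492 and 3431 FPM (2.80), and of Tkt and Taldo1, enzymes of the pentose phosphate pathway (2.41 and 1.59). Idh1, which rose in NRK-52E, fell in NRK-49F (-0.28, adjusted p = 0.0054), and its difference between the lines passed (adjusted p = 3.86e-12). Ftl1 and Gsta1 rose in NRK-49F as well (1.57 and 1.51), as did Akr1b8, Tkt and Taldo1 in NRK-52E (1.03, 1.03 and 1.04), while Slc48a1 rose in NRK-49F (1.00; adjusted p of the difference = 3.21e-07).

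Of 23 tested genes of glutathione metabolism, 11 were higher and 7 lower in NRK-52E, beside 24.7% and 36.6% of all tested genes. In NRK-49F, 7 were higher and 2 lower, beside 14.5% and 14.4%. The 7 lower in NRK-52E lie near that share and are not read as a result about this list. In NRK-52E, Ggct, Ethe1 and Hagh rose (1.25, 1.06 and 1.00, log2), and Anpep, Chac2 and Oplah fell (-3.19, -1.12 and -0.96). In NRK-49F, Gstt2, Ggct and Gstm3 rose (1.17, 1.07 and 0.94), and Abcc5 and Cth fell (-0.97 and -0.30). Hagh also rose in NRK-49F (0.45), and in NRK-52E Gstt2 and Gstm3 also rose (0.47 and 0.37) and Abcc5 fell (-0.46). Of 18 tested genes of thioredoxin, glutaredoxin and methionine sulphoxide reduction, 6 were higher and 8 lower in NRK-52E, and 3 were higher and 2 lower in NRK-49F. These counts lie near the shares of all tested genes, 24.7% and 36.6% in NRK-52E and 14.5% and 14.4% in NRK-49F. They are not read as a result about this list. Txnrd3, a further thioredoxin reductase, and Ero1a, an oxidase of the endoplasmic reticulum, rose in both lines (Txnrd3 1.65 and 0.89, Ero1a 1.08 and 0.81). Tmx1 also rose in both lines (0.53 and 0.43), and Txnl1 rose in NRK-52E (0.77). Nxn, nucleoredoxin, and Msrb3 fell in both lines (Nxn -1.33 and -0.50, Msrb3 -0.34 and -0.58), and Sesn3 and Msrb2 fell in NRK-52E (-0.87 and -0.59). The difference between the lines did not pass for Sesn3 and Msrb2 (adjusted p = 0.158 and 0.168).

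Of 15 tested genes that control NRF2, NRF1 or BACH1, 7 were higher and 2 lower in NRK-52E. Over all tested genes these shares were 24.7% and 36.6%. In NRK-49F, 2 were higher and 4 lower, beside 14.5% and 14.4% of all tested genes. The 2 higher in NRK-49F lie near that share and are not read as a result about this list. Sqstm1, the p62 protein that can sequester KEAP1, rose in both lines (1.10 and 0.65, log2). Ddi2, a protease that activates NRF1, rose in NRK-52E (0.70). Syvn1, a ubiquitin ligase of the endoplasmic reticulum, rose in NRK-52E (0.58) and fell in NRK-49F (-0.37; adjusted p of the difference = 6.01e-06), and Palb2 rose in NRK-49F (1.01). Bach2 and Dpp3 fell in both lines (Bach2 -1.09 and -1.55, Dpp3 -0.92 and -0.34), and Crebbp fell in NRK-49F (-0.33; adjusted p of the difference = 0.723). Of 14 tested oxidant-producing enzymes, 5 were higher and 3 lower in NRK-52E, and 4 were higher and 2 lower in NRK-49F. Beside the same shares of all tested genes, these counts are not read as a result about this list. Poldip2 and Rac1 rose in NRK-52E (0.41 and 0.25) and Xdh, xanthine dehydrogenase, fell from a mean of 553 to 251 FPM (-1.14). In NRK-49F, Aox1 and Maoa rose (0.90 and 0.32) and Rac1 fell (-0.24), and for Rac1 the difference between the lines passed (adjusted p = 0.000471). Aox1 fell in NRK-52E (-0.82; adjusted p of the difference = 0.00107), and the difference did not pass for Poldip2 and Maoa (adjusted p = 0.22 and 0.0651).

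Promoter windows of RefSeq (build GRCr8, 250 bases before to 50 after each gene start) were found for 38 of the 42 tested genes. The core of the antioxidant response element, TGACNNNGC, was searched on both strands, and 9 of the 38 genes had it in at least 1 window, beside 13.1% of all 27457 gene symbols with a window. Of the 25 genes with a window that were higher at pH 6.0 in either line, 7 had the core, and of the other 13, 2 had it. The match is a description of letters in this window and not a site of binding. It was found for Nfe2l2, Gclm, Gstp1, Txnrd1, Prdx1, Prdx4, Prdx5, Sod2 and Ephx1. The windows of 4 of them, chosen after their values were seen, are given because these genes changed in both lines and have their samples described above. Prdx5 and Sod2 changed in both lines too, and their windows are not given. Txnrd1 and Ephx1 each have 2 windows, of which 1 holds the core and is shown. Each is written 5′ to 3′ on the strand of the gene, with the core or its reverse complement in capitals. The window of Gclm lies at chr2:213031885-213032184 (+), that of Gstp1 at chr1:210769656-210769955 (-), that of Txnrd1 at chr7:22755855-22756154 (-) and that of Ephx1 at chr13:95263068-95263367 (-).
Gclm: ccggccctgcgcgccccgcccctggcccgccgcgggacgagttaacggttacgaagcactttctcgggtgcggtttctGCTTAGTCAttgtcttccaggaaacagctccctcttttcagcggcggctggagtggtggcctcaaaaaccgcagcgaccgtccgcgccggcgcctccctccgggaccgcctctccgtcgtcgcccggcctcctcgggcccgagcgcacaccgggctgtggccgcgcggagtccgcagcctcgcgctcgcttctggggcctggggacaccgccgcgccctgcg
Gstp1: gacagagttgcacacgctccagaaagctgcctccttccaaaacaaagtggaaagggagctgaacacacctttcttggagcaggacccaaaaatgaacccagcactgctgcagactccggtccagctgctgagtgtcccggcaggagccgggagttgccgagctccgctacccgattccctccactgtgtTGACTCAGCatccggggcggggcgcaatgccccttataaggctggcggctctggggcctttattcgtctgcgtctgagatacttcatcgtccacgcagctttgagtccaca
Txnrd1: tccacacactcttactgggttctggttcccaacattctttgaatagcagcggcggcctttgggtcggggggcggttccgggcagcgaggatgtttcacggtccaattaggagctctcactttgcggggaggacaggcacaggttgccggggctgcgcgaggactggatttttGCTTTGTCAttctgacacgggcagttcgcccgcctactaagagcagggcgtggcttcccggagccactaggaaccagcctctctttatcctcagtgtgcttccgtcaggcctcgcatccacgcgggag
Ephx1: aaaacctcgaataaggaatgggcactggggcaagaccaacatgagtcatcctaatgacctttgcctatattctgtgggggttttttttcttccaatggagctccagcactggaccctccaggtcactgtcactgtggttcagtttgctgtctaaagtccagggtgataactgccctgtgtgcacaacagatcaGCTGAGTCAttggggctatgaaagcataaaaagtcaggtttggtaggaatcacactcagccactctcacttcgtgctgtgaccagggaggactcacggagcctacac
The core begins 172 bases before the start of Gclm, 61 before that of Gstp1, 78 before that of Txnrd1 and 57 before that of Ephx1.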

How the data were processed

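The deposited table holds raw counts per gene, which the authors made by mapping read pairs with HISAT2 2.1.0 and counting them on exons with featureCounts, with no normalization. Reads that map to several places were counted, so genes with close paralogs are uncertain. The counting options in the study's methods name no strand setting, so genes and antisense partners cannot be told apart. The study's methods name the build rn7 and the submitters' processing notes rn6. Of the per-sample columns, 23 were used and 13 were left out because their names match no sample's label.

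The labels' cell line and pH gave the 4 groups. The filter on low counts was filterByExpr of edgeR 4.0.16 (minimum count 10, minimum total 15), run in R 4.3.3, libraries were scaled by TMM, and all 23 samples were fitted in 1 model with 4 groups by the quasi-likelihood test. p-values were adjusted over all genes tested by the Benjamini-Hochberg method, with a threshold of 0.05. The SE is the absolute log2 fold change divided by the square root of F. Sample groups were compared in a model of 8 groups. Counts differed between samples of a group by more than sampling noise in all 55 pairs (chi-square per degree of freedom at least 5.91). The code was tested on simulated data, where the test of a difference between the lines recovered fewer changes of a given size than the test within a line.

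The members and lists were chosen with earlier results of these data known. Values per sample are given for Nfe2l2, for Keap1, for the 6 genes per line with the largest absolute log2 fold change past the threshold and a mean of at least 5 FPM at either pH, and for the 4 with the largest difference between the lines. Of each further list, the 3 largest rises and falls per line are named, with the same minimum level. Per-sample values of Gpx1 and Txnrd1 and per-group values of Gsta4 were added after their values were seen. Alternatives were RLE, upper-quartile and no scaling factors, other filters, DESeq2 1.42.0, calls by both tools, a threshold of 0.01, a test against a 1.5-fold change, thinned libraries, each line alone, sample groups as a block or alone, and leaving out each replicate. Leaving out A021 with A042, and A021, A035 and A042 together, was chosen after seeing the data, as was the share of counts in Rpl and Rps genes. Promoters were taken from RefSeq, build GRCr8, by symbol. Python 3.11.15 and matplotlib 3.10.9 drew the figures.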

Additional observations from a re-analysis of the deposited data

Results flagged for a closer look

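In 172 combinations of a gene, or of the summed redox genes, with a group of samples, 14 had a sample whose gap to the nearest other sample was a large part of the range of the group, above Dixon's critical value for its size. The nominal rate of that value is 1 in 20 combinations, here 8.6. The combinations are not independent, because genes share libraries and the sum holds the genes. The 14 and the 8.6 are therefore not compared as a test. Of the 14, 10 were replicate A035 of NRK-52E at pH 7.4 as the highest sample. The gap was 0.676 of the range for Gpx1, 0.734 for Gpx4, 0.654 for Gpx7, 0.767 for Mgst3, 0.626 for Txn1, 0.655 for Txn2, 0.703 for Prdx2, 0.724 for Prdx5, 0.734 for Sod1 and 0.718 for the summed redox genes. In A035, Gpx4 was at 521 FPM against at most 355 FPM in the other 5 samples, and Sod1 at 432 against at most 297 FPM. In NRK-49F at pH 7.4, A051 was highest for Gsta4 (9.74 FPM, gap 0.815 of the range) and A041 for Osgin1 (37.5 FPM, gap 0.663). In NRK-49F at pH 6.0, A042 was highest for Txnrd1 (216 FPM, gap 0.876) and for Prdx1 (1343 FPM, gap 0.765). What sets these libraries apart was not tested.

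The change at pH 6.0 differed between the lines for 25 genes by the test of the difference itself. On the log2 scale, NRK-52E minus NRK-49F, it was above 0 for Nfe2l1 (0.69), Maff (1.11), Gclm (1.34), Gsr (0.30), Txn2 (0.90), Txnrd1 (0.65), Prdx6 (0.51), Osgin1 (1.81), Ephx1 (3.41), Blvrb (0.74) and Abcc4 (1.31). It was below 0 for Gclc (-0.34), Gss (-0.83), Ggt1 (-2.21), Glrx (-1.64), Gpx1 (-1.39), Gstm1 (-1.11), Gstp1 (-0.95), Mgst3 (-4.17), Txn1 (-0.58), Txnrd2 (-1.56), Prdx1 (-1.55), Prdx2 (-0.63), Sod3 (-2.23) and Nqo1 (-0.80). Within NRK-52E, the change in sample group 1 minus that in sample group 3 passed the test for Glrx (0.99), Gstp1 (1.15), Mgst1 (1.43), Sod3 (0.83), Nqo1 (0.87) and Ephx1 (-1.44).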

How the results depend on the processing

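Of 168 log2 differences (42 genes in 4 comparisons), 112 passed the threshold, and 59 of these stayed past it in all alternatives that gave a value. The other 53 missed it in at least 1, none of the 112 changed sign, and 21 of the other values passed in at least 1 alternative. The value of Mgst1 in NRK-52E (0.41, not past the threshold) was -0.39 and past it in sample group 3 alone; the cause was not tested.

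The test against a 1.5-fold change asks for larger changes. The shares of all tested genes given above belong to the test against no change, so the counts here are not set against a background. It gave 14 higher and 4 lower genes in NRK-52E, 10 higher and 0 lower in NRK-49F (glmTreat of edgeR), 13 genes that differ between the lines, 5 higher and 13 lower in NRK-52E at pH 7.4, and 2 that differ between sample groups 1 and 3. Of the 92 other genes it gave 19 higher and 11 lower in NRK-52E and 16 higher and 1 lower in NRK-49F. The 1 gene lower in NRK-49F became 4 with raw library sizes, 2 with DESeq2, with each line alone, with the block for the sample group, in sample group 6 alone and without A021, A035 and A042, and 0 at a threshold of 0.01. At 0.01, 2 genes differed between groups 1 and 3. In sample group 1 alone, 5 genes were lower in NRK-52E, and 14 of the 92 others. In sample group 4 alone, 6 of the 92 were lower in NRK-49F. For these the cause was not tested. Each line alone moved the median of all genes in NRK-52E from -0.12 to -0.0023.

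Leaving out each of the 23 replicates gave 21 to 25 genes higher and 6 to 9 lower in NRK-52E, 20 to 22 higher and 1 to 2 lower in NRK-49F, 23 to 28 that differ between the lines, 10 to 12 higher and 20 to 24 lower in NRK-52E at pH 7.4, 3 (without A036) to 9 that differ between groups 1 and 3, and 0 between groups 4 and 6 (edgeR). Of the 92 others it gave 38 to 43 higher and 21 to 25 lower in NRK-52E and 28 to 33 higher and 9 to 12 lower in NRK-49F. Single replicates could not be paired because the replicate codes are not shared between the groups. Matching by sample group was possible, and the sample group was fitted as a block among the alternatives. Depth limits Gpx3 and, at pH 6.0 in NRK-52E, Mgst3, which had 1 to 8 counts there.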

Other observations

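Of 6 immune markers, Cd14 was the highest in FPM at pH 7.4, with a mean of 95.5 FPM in NRK-52E and of 101 FPM in NRK-49F. Ptprc had no count in 21 of the 23 samples, while Cd68, which encodes a lysosomal membrane protein, had a mean of 29.9 FPM in NRK-49F at pH 7.4 and of 229 FPM at pH 6.0. In NRK-52E its means were 1.9 and 4.15 FPM. The summed immune markers were 122 to 138 FPM in NRK-49F at pH 7.4 and 294 to 342 FPM at pH 6.0. Of 6 endothelial markers, Kdr had no count in any of the 23 samples, and Tek, the highest of them in FPM in NRK-52E at pH 7.4, had a mean of 14.3 FPM there and of 1.76 FPM at pH 6.0. These marker differences were not tested, nor was their part in the changes of the redox genes.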
